A study of Rattus norvegicus with 33 samples.

Results

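The muscle miRNAs rno-miR-1-3p, rno-miR-1b, rno-miR-133a-3p and rno-miR-206-3p were followed in rat plasma through 6 drug-induced models of liver injury. The 4 miRNAs were taken by name from the count table of each model, out of 462 miRNAs listed in at least 1 table, and all 4 were listed in all 6 tables. The choice was made with earlier results of these data known, so it was not blind to their values.

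Plasma small RNA of male Sprague-Dawley rats, 6 weeks old on arrival and 5 in a group, was sequenced. The hepatocellular models were acetaminophen (APAP, 1500 mg/kg, given to fasted rats) and thioacetamide (TAA, 100 mg/kg), both in carboxymethylcellulose (CMC), with plasma taken at 3, 6, 12 and 24 h. The cholestasis models were α-naphthylisothiocyanate (ANIT, 150 mg/kg in corn oil) and methylenedianiline (MDA, 250 mg/kg in CMC), followed to 48 h. In the steatosis models, carbon tetrachloride (CCl4, 300 mg/kg) and dexamethasone (DEX, 15 mg/kg) were given daily in corn oil, with plasma taken on Day 1, 3 and 5 or Day 1, 2 and 3. Each model had a group given its solvent, called vehicle here, which CCl4 and DEX shared. Every compound went into the stomach, and the blood was EDTA blood from the descending aorta. The labels do not say when vehicle plasma was drawn, whether the APAP vehicle rats were fasted, or how many rats a library holds.

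In vertebrate muscle, miR-1 and miR-133a are made in both heart and skeletal muscle, miR-206 mainly in skeletal muscle. They are switched on by the myogenic transcription factors and support differentiation (miR-1, miR-206) or act on proliferation and contractile genes (miR-133a), as worked out largely in mice. All of them are scarce in hepatocytes, and a rise in plasma is used as a sign of muscle cell damage, much as miR-122 is used for liver.

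The mature sequences are printed because 3 of the 4 miRNAs are near copies of each other, which matters for how reads are assigned. They are given 5′ to 3′ from RefSeq (rat build GRCr8), with the seed, bases 2 to 8, in capitals.
rno-miR-1-3p: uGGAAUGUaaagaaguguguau
rno-miR-1b: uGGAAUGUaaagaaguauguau
rno-miR-206-3p: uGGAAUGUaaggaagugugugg
rno-miR-133a-3p: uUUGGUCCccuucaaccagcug
The first 3 share the seed GGAAUGU, and miR-133a-3p has the seed UUGGUCC. Counted from the 5′ end, miR-1-3p and miR-1b differ by 1 base of 22, G17A, and miR-1-3p and miR-206-3p by 3 bases, A11G, A21G and U22G. How the authors' counting split reads between miR-1-3p and miR-1b is not stated in the labels or files used here. Each value of miR-1b is uncertain to that extent, and the sum of both was computed beside it.

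The 4 miRNAs come from 3 loci of the same assembly. miR-1-3p lies in Mir1 at chr18:2160339-2160360, minus strand, and miR-133a-3p in Mir133a1 at chr18:2157886-2157907, minus strand, both within the span of the protein-coding gene Mib1. miR-206-3p lies in Mir206 at chr9:30590747-30590768, plus strand, within the span of the lncRNA gene LOC120094648 and with Mir133b within 5000 bases. miR-1b lies in Mir1b at chr3:187864736-187864757, plus strand, where the annotation lists no overlapping gene. The annotation table gives gene spans only, so intron or exon was not assigned. It also lists Mir3571 over Mir1 and Mir3582 over Mir133a1.

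The tables hold 29 distinct libraries (5 vehicle, 24 treated) for 33 labelled samples, since 4 ANIT groups with 2 labelled samples have 1 column each. No group has replicates in the tables. Totals ran from 14176 reads (MDA vehicle) to 383330 reads (TAA 24 h), so a count of 0, read as up to 3 reads, allows a share of 0.000783% to 0.0212%. A level below is in TMM-scaled CPM, the reads of a miRNA as a share of the library's TMM-scaled total, with all libraries scaled together. It is relative to the other miRNAs and not a concentration: more of a miRNA and less of the others cannot be told apart. Ratios carry exact 95% counting intervals, which cover counting error only. A treated library was called higher or lower than its vehicle by size, when it lay 2-fold or more above, or at 0.5 of it or less, with an interval that excludes 1, and only where the miRNA reached 20 reads in some library of the model. This rule carries no p-value.

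In vehicle plasma miR-1-3p was the most abundant of the 4, at a mean 0.232% ± 0.162 of reads (SD, n = 5 vehicle libraries), rank 39 of 264 miRNAs. miR-206-3p (0.0685% ± 0.0619) ranked 74th, miR-1b (0.0436% ± 0.0257) 85th and miR-133a-3p (0.00544% ± 0.00536) 159th. Over all 29 libraries, miR-1-3p had the most reads of the 4 in 27, and miR-133a-3p the fewest in 28, ties counted. The order of miR-206-3p and miR-1b was not fixed: miR-206-3p was above in 17 libraries, below in 11 and level in 1.

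The vehicle libraries differed widely in these miRNAs. The miR-1-3p level was 422 in the APAP vehicle, 597 in the ANIT vehicle, 1385 in the CCl4/DEX vehicle, 1576 in the MDA vehicle and 2386 in the TAA vehicle, a 5.66-fold range (mean 1273 ± 794 SD). The miR-206-3p level was 137 in the MDA vehicle, 249 in APAP, 258 in ANIT, 328 in CCl4/DEX and 914 in TAA, a 6.67-fold range, in which the TAA vehicle stood alone at the top. The miR-1b level was 86.5 in the APAP vehicle, 129 in ANIT, 205.6 in MDA, 294 in TAA and 599 in CCl4/DEX, a 6.92-fold range. Thus the APAP and ANIT vehicles were the lowest for both miR-1-3p and miR-1b, while the top library differed between them. miR-133a-3p had 0 reads in the APAP and MDA vehicles, 3 in TAA, 6 in ANIT and 14 in CCl4/DEX.

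Among 99 miRNAs with at least 100 reads pooled over the vehicle libraries and none at 0, the median range was 2.30-fold. By this range miR-1b was the 6th widest, miR-206-3p the 7th and miR-1-3p the 10th. The order depended on the scaling. With total counts in place of TMM miR-206-3p was the 5th, miR-1-3p the 6th and miR-1b, at 4.67-fold, the 13th. The lowest and the highest miR-1-3p vehicle were both CMC groups, while the highest miR-1b vehicle was a corn oil group, and the part of the solvent was not tested. When the rule of size was applied to the 10 pairs of vehicle libraries, miR-1-3p and miR-1b were each called in 6 pairs and miR-206-3p in 4, against 17.1% of all miRNA and pair combinations. miR-133a-3p, with at most 14 reads in a vehicle library, was not measured there, and miR-1b reached 20 reads only in the CCl4/DEX vehicle. A fold against 1 vehicle library therefore depends on which vehicle it is, and the counts over all libraries are also given against all 5.

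**Figure D1:**
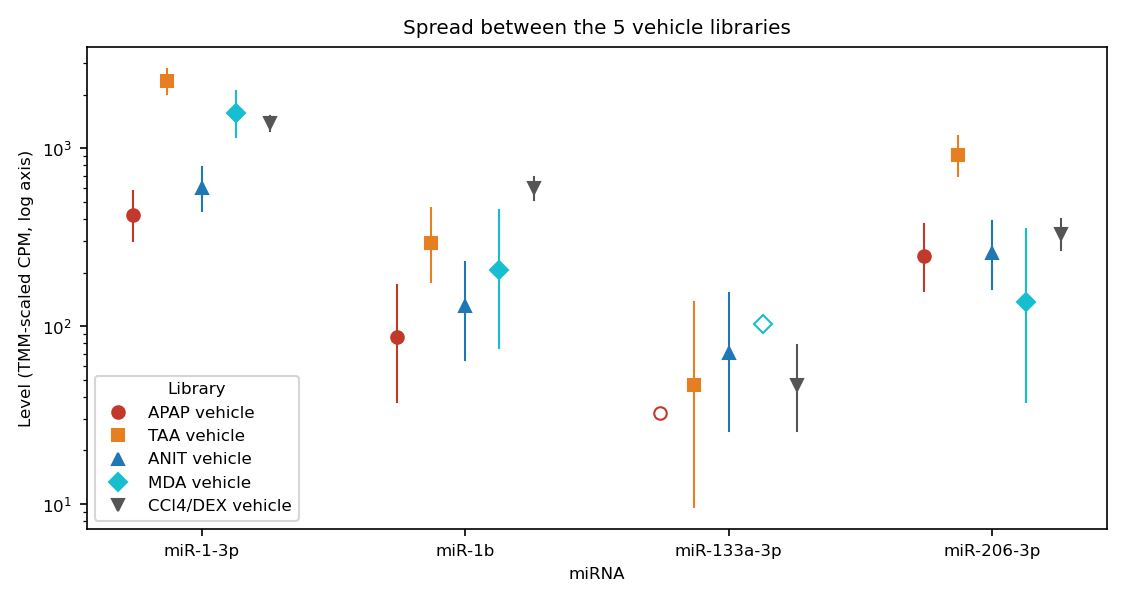
Level of each miRNA (TMM-scaled CPM, log axis) in the 5 vehicle libraries, with exact 95% counting intervals. Open symbols stand at the level of 3 reads where the count is 0. The TAA vehicle is highest for miR-1-3p (2386) and miR-206-3p (914), and the CCl4/DEX vehicle for miR-1b (599).

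After APAP, all 4 miRNAs were at their highest at 3 h and 3 of them lowest at 24 h. miR-1-3p held 39 reads in the vehicle and 478, 74, 40 and 8 at 3, 6, 12 and 24 h, which are levels of 422, 4825, 788, 399 and 46.6. It was 11.4-fold higher than vehicle at 3 h (8.25 to 16.3) and 9.05-fold lower at 24 h (4.17 to 22.4). The 3 h library was above all 5 vehicle libraries and the 24 h library below all of them. miR-206-3p, the skeletal muscle member, held 23 reads in the vehicle and then 220, 16, 8 and 2, and was 8.93-fold higher at 3 h (5.799 to 14.4). By 12 h it was 3.12-fold lower, and by 24 h 21.4-fold lower (5.28 to 187). It was back under its vehicle by 6 h, at a ratio of 0.685 that was not called. With total counts in place of TMM that ratio was 0.292 and was called lower. With total counts miR-1-3p was also called lower at 12 h, at a ratio of 0.168 against 0.946 under TMM.

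The scarcer members were also highest at 3 h. miR-133a-3p, with its own seed, held 0 reads in the APAP vehicle and 26, 1, 0 and 0 at the 4 times, so at 3 h it was at least 8.09-fold higher. This was the only model in which it reached 20 reads. miR-1b held 8 reads in the vehicle and then 46, 15, 6 and 8, and was 5.37-fold higher at 3 h (2.51 to 13.2). Its later ratios of 1.85, 0.692 and 0.538 were not called. With total counts its 12 and 24 h ratios were 0.123 and 0.196, both called lower. Both miR-1b and miR-133a-3p reached 20 reads in the 3 h library alone, so they were measured only because they were high there. Their rises are left out of the count for this model. The other 2 members, miR-1-3p and miR-206-3p, were both called higher at 3 h, where 12.3% of the 130 miRNAs measured were. Of these 2, miR-206-3p was called lower at 12 h (16.2% of miRNAs) and both at 24 h (33.8%).

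After TAA, miR-1-3p and miR-1b were again highest at 3 h, and all 3 measured members were far below vehicle at 12 and 24 h. The TAA vehicle held the highest miR-1-3p and miR-206-3p levels of the 5. miR-1-3p held 154 reads in the vehicle and 517, 121, 12 and 21 at 3, 6, 12 and 24 h, which are levels of 2386, 7281, 2085, 223 and 124. The 3 h level was the highest of any library under TMM. As a plain share of reads the 3 h library after APAP was higher (0.918%, against 0.601% after TAA). The TAA 3 h level was 3.05-fold above vehicle (2.54 to 3.68). The later levels were 10.7-fold lower (12 h) and 19.3-fold lower (24 h). miR-1b held 19 reads and then 68, 28, 1 and 10, and was 3.25-fold higher at 3 h (1.93 to 5.73). It was 15.8-fold lower on the 1 read of 12 h (2.52 to 658) and 4.99-fold lower at 24 h.

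miR-206-3p was not called higher at 3 h after TAA. Its counts were 59 in the vehicle and 61, 26, 7 and 3 later, a ratio of 0.940 at 3 h (0.646 to 1.37). It was below vehicle by 2.04-fold at 6 h, by 7.02-fold at 12 h and by 51.7-fold at 24 h (16.8 to 258). miR-133a-3p stayed under 20 reads, with 3 in the vehicle and 8, 9, 3 and 1 later. Of the 3 members measured, 2 were called higher at 3 h, against 15.4% of 123 miRNAs. Of these 2, miR-1b reached 20 reads only at 3 and 6 h, so it was measured only through its early libraries. Called lower were 1 at 6 h (7.32%), 3 at 12 h (24.4%) and 3 at 24 h (31.7%). With total counts in place of TMM, neither rise at 3 h was called, and miR-206-3p was called lower then.

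After ANIT, the 3 measured members were called higher at both 3 and 6 h. miR-1-3p held 51 reads in the vehicle and 232, 415, 91, 137 and 7 at 3, 6, 12, 24 and 48 h, which are levels of 597, 4013, 4776, 1077, 865 and 140. The 3 h library was 6.72-fold higher (4.94 to 9.29) and the 6 h library 7.996-fold (5.97 to 10.9). It was not called at 12 and 24 h, and 4.26-fold lower at 48 h (1.92 to 11.1). miR-206-3p followed with 22 reads in the vehicle and then 31, 117, 14, 16 and 4. Its 3 h level was 2.08-fold higher, a call that total counts did not give, and its 6 h level 5.23-fold higher (3.29 to 8.66). It was already 2.55-fold lower at 24 h, when miR-1-3p was still at a ratio of 1.45. At 48 h it was 3.21-fold lower, a call lost with TMM within each model and in the authors' normalized values.

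miR-1b held 11 reads in the ANIT vehicle and 24, 31, 13, 22 and 0 later. It was 3.22-fold and 2.77-fold higher at 3 and 6 h, and at least 2.14-fold lower at 48 h. With 0 reads there, no call could be made in the authors' normalized values. miR-133a-3p, with 6 reads in the vehicle and 1, 4, 7, 16 and 0 later, was highest at 24 h, and none of these libraries reached 20 reads. All 3 measured members were called higher at 3 h (15.3% of 118 miRNAs) and at 6 h (21.2%). In the lower direction the count was 1 at 24 h (20.3%) and 3 at 48 h (33.1%).

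After MDA, miR-1-3p, the 1 member measured there, was not called higher at any time and was called lower from 6 h on. miR-1-3p held 46 reads in the shallow vehicle library and 58, 38, 32, 21 and 25 at 3, 6, 12, 24 and 48 h, levels of 1576, 1134, 394, 376, 199 and 470. Relative to vehicle the last 4 of these were lower, 3.998-fold, 4.19-fold, 7.92-fold (4.63 to 14.0 at 24 h) and 3.35-fold in turn. The other 3 never reached 20 reads: miR-1b held 6, 18, 10, 8, 1 and 3, miR-206-3p 4, 12, 5, 5, 12 and 3, and miR-133a-3p 0, 3, 3, 0, 1 and 0. The share of the 95 measured miRNAs called lower was 21.1%, 22.1%, 18.9% and 22.1% at 6, 12, 24 and 48 h.

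**Figure D2:**
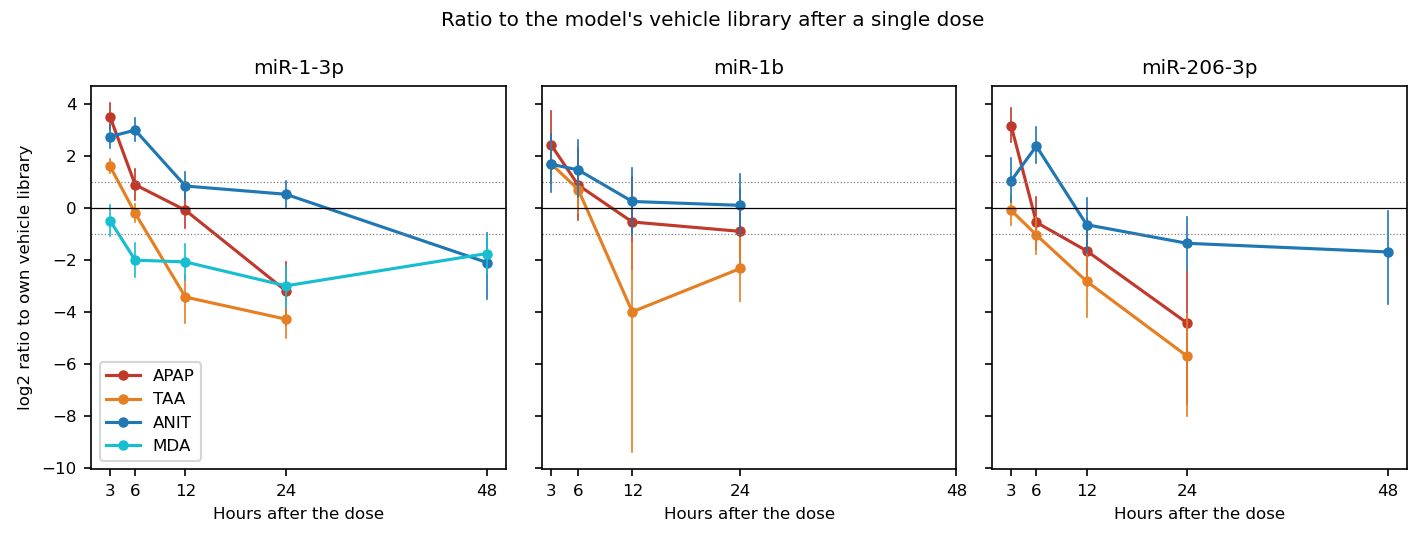
Log2 ratio of each treated library to its model's vehicle library against hours after a single dose, with exact 95% counting intervals and dotted lines at a log2 ratio of 1 and -1. miR-133a-3p, and miR-1b and miR-206-3p after MDA, are not shown, and miR-1b at 48 h after ANIT had 0 reads and has no point. Ratios at 3 h are above 1 after APAP, TAA and ANIT, except for miR-206-3p after TAA (0.940).

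The change from 3 h to 24 h needs no vehicle library. miR-1-3p was 104-fold higher at 3 h than at 24 h after APAP (52.1 to 241), 58.8-fold after TAA (38.0 to 95.8), 5.70-fold after MDA (3.41 to 9.89) and 4.64-fold after ANIT (3.74 to 5.78). miR-206-3p was 191-fold higher at 3 h after APAP (52.2 to 1584), 48.5-fold after TAA (15.8 to 242) and 5.31-fold after ANIT, while after MDA both times had 12 reads (2.06-fold, 0.848 to 5.02). For miR-1b the ratios were 9.97 after APAP, 16.2 after TAA, 2.99 after ANIT and 37.1 after MDA, the last on 18 reads against 1 (5.87 to 1548). These folds depend on the scaling. With total counts miR-1-3p was 276-fold higher at 3 h after APAP, 109.6-fold after TAA, 15.8-fold after MDA and 6.05-fold after ANIT. For miR-206-3p they were 508 after APAP, 90.6 after TAA, 6.92 after ANIT and 5.71 after MDA (2.35 to 13.9), and for miR-1b 26.6 after APAP, 30.3 after TAA, 3.90 after ANIT and 103 after MDA. Under TMM, TMM within each model and total counts, the miR-1-3p intervals after APAP and TAA (hepatocellular) lay above those after ANIT and MDA (cholestasis). So did those of miR-206-3p. For miR-1b the TMM interval after MDA (5.87 to 1548) overlapped those after APAP (4.66 to 24.4) and TAA (8.31 to 35.4). Each side had 2 models, the intervals cover counting error only, and that difference was not tested.

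To test time across models, the vehicle, 3, 6, 12 and 24 h libraries of APAP, TAA, ANIT and MDA were fitted together, with the 4 models standing as replicates of a time point. edgeR's quasi-likelihood test was run on 131 miRNAs, with p-values adjusted over all of them (Benjamini-Hochberg). The early change is the mean of 3 and 6 h against vehicle and the late change that of 12 and 24 h. miR-133a-3p was too scarce for this fit.

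Late levels were below early levels for all 3 members tested. The log2 difference, late minus early, was -3.04 for miR-1-3p (SE 0.53, adjusted p = 0.000833), -2.40 for miR-1b (SE 0.43, adjusted p = 0.000839) and -3.02 for miR-206-3p (SE 0.67, adjusted p = 0.00277). Each fell in 4 of 4 models. For miR-206-3p after MDA the fall was a log2 of only -0.43, on 12 and 5 reads early and 5 and 12 reads late, so it rests on the scaling. Of the 131 miRNAs, 9.16% were called lower in this contrast, and by p-value the 3 members stood 2nd, 3rd and 8th. miR-206-3p lost the call without APAP (log2 -2.38, adjusted p = 0.0760). Over the alternative settings the adjusted p ran from 3.26e-08 to 0.0370 for miR-1-3p, 1.45e-07 to 0.0370 for miR-1b and 9.47e-06 to 0.0760 for miR-206-3p.

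Against vehicle, the late fall was called and the early rise was not. The late change was -2.06 for miR-1-3p (SE 0.61, adjusted p = 0.0108), -1.31 for miR-1b (SE 0.53, adjusted p = 0.0489) and -2.31 for miR-206-3p (SE 0.77, adjusted p = 0.0191), in a contrast where 23.7% of miRNAs were called lower. miR-206-3p was below vehicle in 4 of 4 models, and miR-1-3p and miR-1b in 3, the exception being ANIT. After MDA the miR-206-3p value was a log2 of -0.82, on 4 reads in the shallow vehicle library and 5 and 12 late. Without TAA none of the 3 was called (log2 -1.37, -0.84 and -1.33, with adjusted p = 0.169, 0.284 and 0.279), and without the TAA vehicle library alone only miR-1-3p was. In the same edgeR test miR-1b also lost its call without APAP (log2 -1.60, adjusted p = 0.113) or MDA (-1.17, adjusted p = 0.0884), and miR-206-3p without APAP (-2.21, adjusted p = 0.0792) or ANIT (-2.40, adjusted p = 0.0512).

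By edgeR's quasi-likelihood test the early change of miR-1-3p was 0.98 (SE 0.63, adjusted p = 0.370), that of miR-1b 1.08 (SE 0.53, adjusted p = 0.203) and that of miR-206-3p 0.71 (SE 0.76, adjusted p = 0.673). edgeR's quasi-likelihood test and the DESeq2 Wald test each called 0 of the 3. In edgeR with TMM and all 4 models, 0 of the 3 had an unadjusted p under 0.05. miR-1b did in DESeq2 (log2 1.19, unadjusted p = 0.0181, adjusted p = 0.0912). It also did in edgeR with DESeq2 size factors (unadjusted p = 0.0373, adjusted p = 0.1795). In either direction, 8.4% of all 131 miRNAs were called. This contrast averages 3 and 6 h and includes MDA, where miR-1-3p lay below vehicle at both times. Without MDA, edgeR's quasi-likelihood test gave miR-1-3p a log2 of 1.54 (unadjusted p = 0.0486, adjusted p = 0.215). For miR-1b it gave 1.34 (unadjusted p = 0.0266, adjusted p = 0.149) and for miR-206-3p 0.82 (unadjusted p = 0.287). None of the 3 was called there either. In the mean of 3 and 6 h, miR-1-3p and miR-1b were above vehicle in 3 of 4 models and miR-206-3p in 2.

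**Figure D3:**
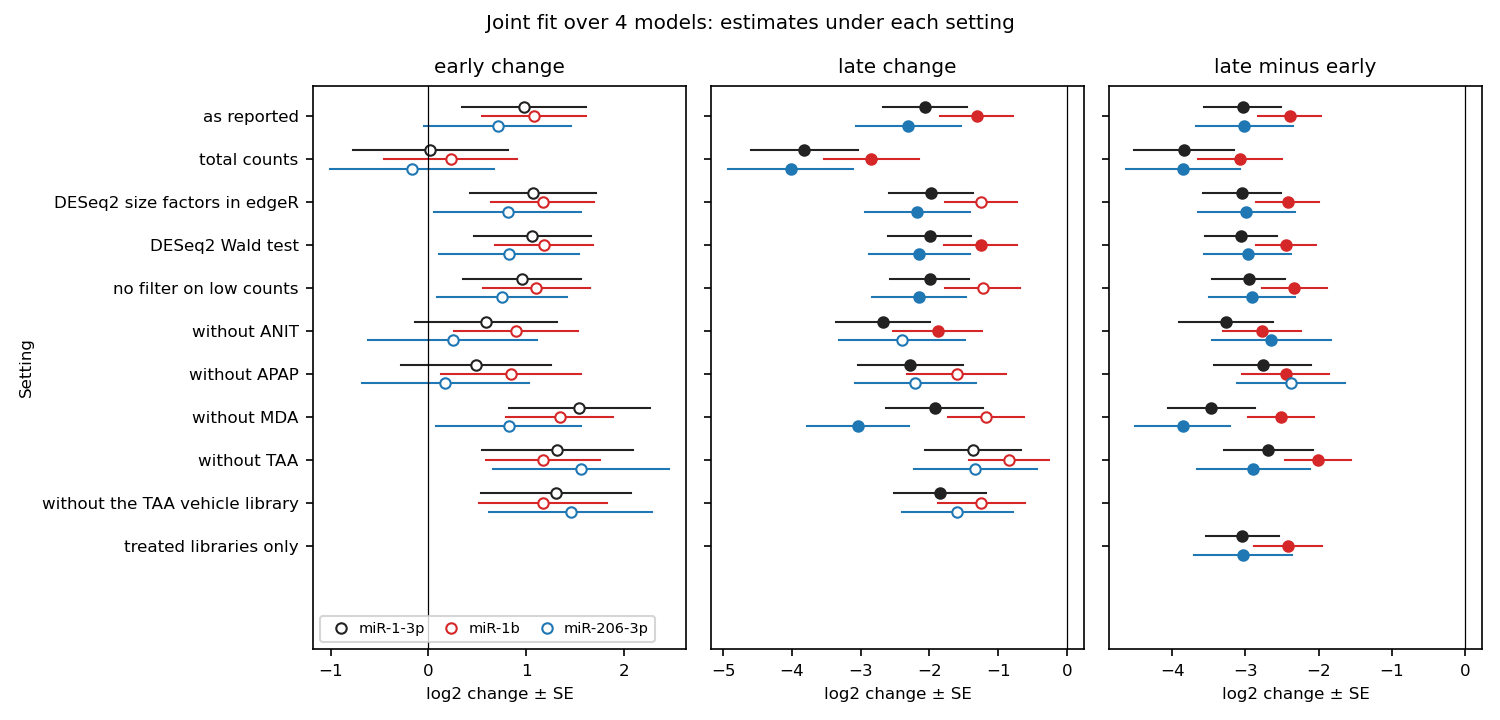
Log2 change ± SE of miR-1-3p, miR-1b and miR-206-3p in the joint edgeR or DESeq2 fit, under each setting named on the vertical axis. Filled points have an adjusted p under 0.05. The late minus early estimates lie between -3.86 and -2.01, and with total counts the early change of miR-206-3p is below 0 (-0.17) while those of miR-1-3p (0.02) and miR-1b (0.23) are above it.

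Whether these changes differed between injury types was tested in the same fit with an interaction term, with 2 models in each type. No member was called. The late change of miR-206-3p was lower in the hepatocellular than in the cholestasis models by a log2 of -3.19 (SE 1.20, adjusted p = 0.0865; unadjusted p = 0.0152), and with total counts this was called (-4.25, adjusted p = 0.0230), a setting in which 25.2% of all miRNAs were called. For miR-1-3p it was -1.68 (adjusted p = 0.292) and for miR-1b -1.13 (adjusted p = 0.496). Under TMM 3.82% of miRNAs were called in that contrast. The early contrast between types called 0% of the 131 miRNAs by edgeR, with 5 at an unadjusted p under 0.05, and 0 by DESeq2. Its member estimates were 0.41, 0.20 and -1.01, each within 1 SE of 0.

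Scaling and other blood miRNAs moved with these results. With total counts the median log2 change of all miRNAs moved from -0.018 to -0.88 early and from -0.20 to -1.68 late, shifts of -0.86 and -1.48, and under TMM the liver miRNA miR-122-5p was 5.63 higher late than in vehicle (adjusted p = 2.13e-06). With total counts the early change of miR-1-3p was 0.02 and that of miR-206-3p -0.17, and the late minus early differences were -3.84 and -3.85, beside a shift of -0.74 in the median of all miRNAs in that contrast. The red cell miRNAs miR-451-5p, miR-486 and miR-16-5p (3 of 3 detected in every library) had a summed level of 15282 to 38908 in vehicle, 3050 to 20097 early and 1893 to 19209 late. In the joint fit all 3 were lower late than in vehicle (log2 -1.64, -1.77 and -2.07, adjusted p = 0.000805, 0.00678 and 0.000159), and in late minus early 0 of 3 were called by edgeR (-0.21, -0.65 and -0.37, adjusted p = 0.553, 0.238 and 0.362), with 0 at an unadjusted p under 0.05 and 0 by DESeq2. With total counts all 3 were called lower in late minus early (-0.96, -1.41 and -1.08, adjusted p = 0.0301, 0.0261 and 0.0261). Of the smooth muscle miRNAs, miR-143-3p and miR-145-5p, 0 of 2 were called in either contrast by edgeR or DESeq2, and 0 had an unadjusted p under 0.05 in edgeR (2 of 2 detected in every library, summed level 9727 to 46771 in vehicle, 6566 to 154084 early and 3161 to 138267 late), but with total counts both were called lower late than in vehicle (log2 -1.68 and -2.10, adjusted p = 0.0217 and 0.0229). The leukocyte list (miR-223-3p, miR-142-3p, miR-142-5p, miR-150-5p; 3 or 4 of 4 detected) had a summed level of 2330 to 5989 in vehicle, 508 to 2735 early and 230 to 2391 late. Of its 3 members tested, miR-150-5p and miR-223-3p were lower late than in vehicle (log2 -2.47 and -1.85, adjusted p = 0.00128 and 0.00242), and 0 of 3 were called in late minus early by edgeR. There miR-150-5p had an unadjusted p under 0.05 (log2 -1.12) and was called by DESeq2 (-1.09, adjusted p = 0.0461), and miR-150-5p and miR-223-3p were called with total counts. The part of these shifts in the members' changes was not tested.

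**Figure D4:**
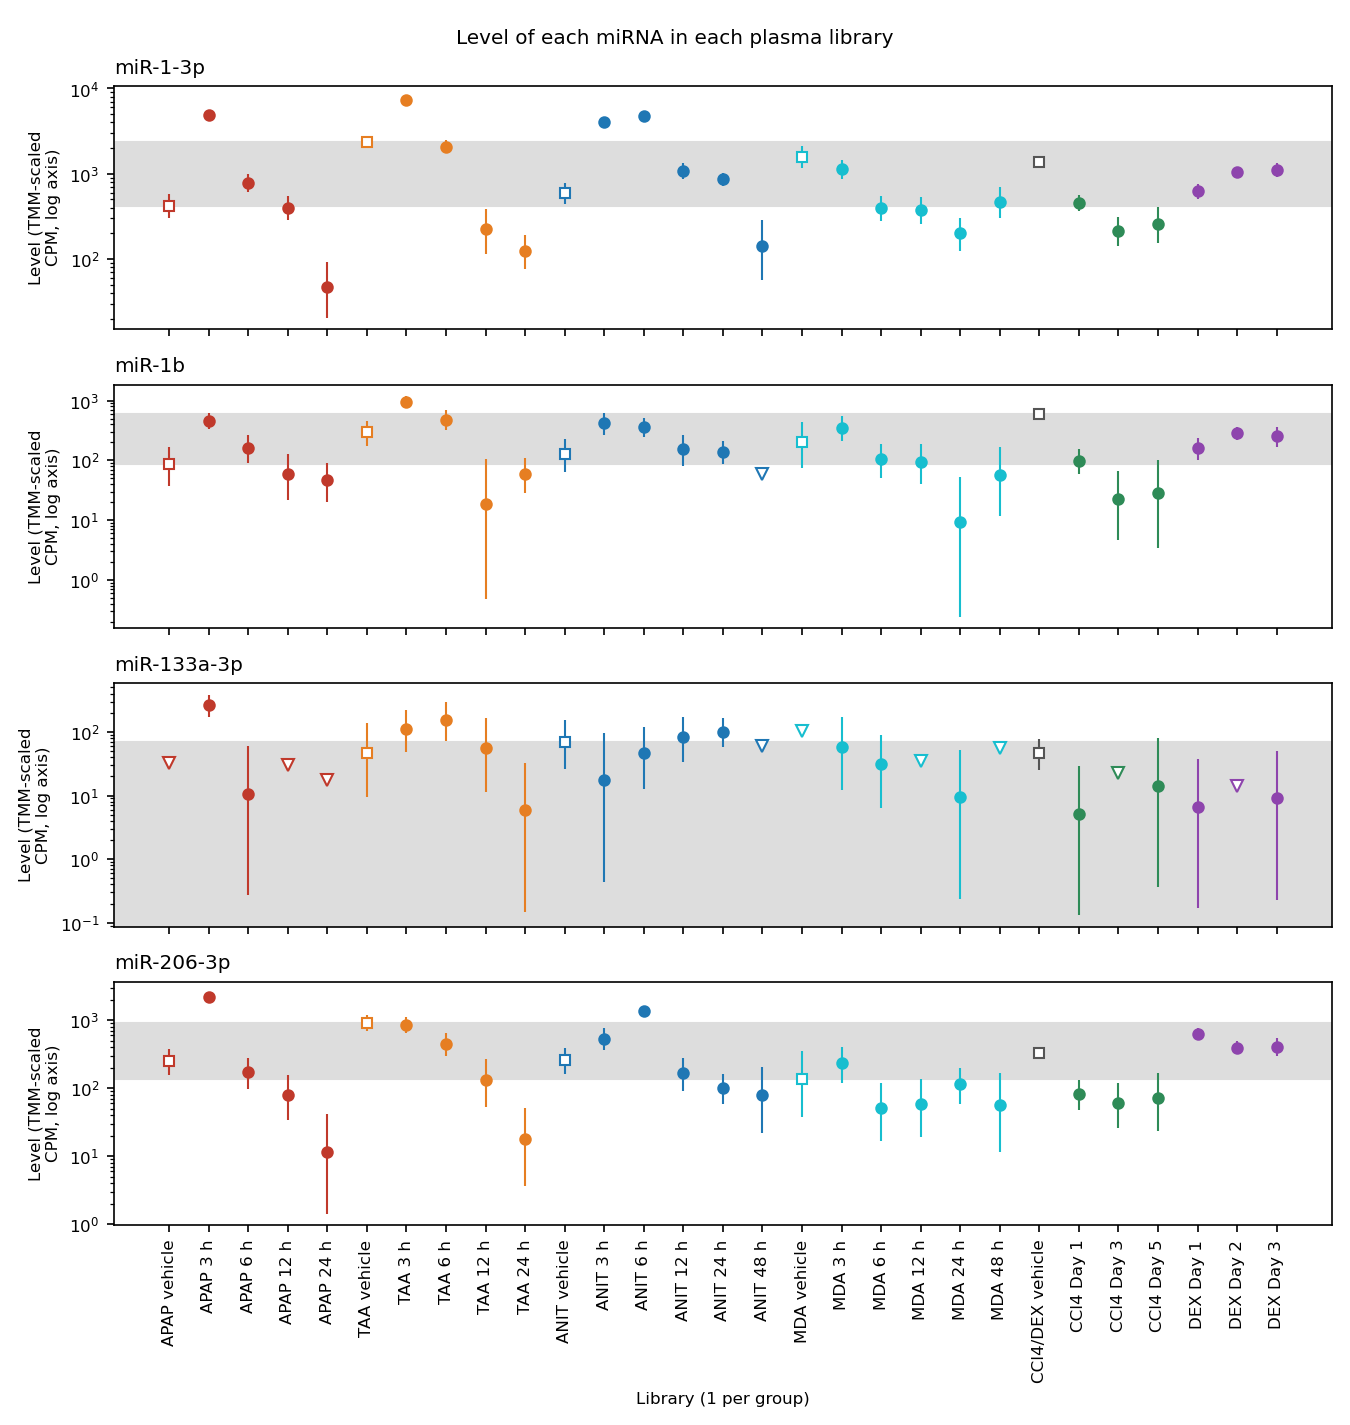
Level of each miRNA (TMM-scaled CPM, log axis) in all 29 libraries, coloured by model, with exact 95% counting intervals. Open squares are vehicle libraries, open triangles stand at the level of 3 reads where the count is 0, and the grey band spans the 5 vehicle libraries (down to the axis where the lowest is 0). miR-1-3p is above the band in 4 libraries and below it in 10.

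In the repeated-dose models the 2 compounds shared 1 vehicle library, which held 414 reads of miR-1-3p, 179 of miR-1b, 98 of miR-206-3p and 14 of miR-133a-3p. With CCl4 on Day 1, 3 and 5, miR-1-3p held 89, 28 and 18 reads and was 3.02-fold, 6.50-fold and 5.39-fold lower. miR-1b held 19, 3 and 2 reads and was 6.12-fold, 26.2-fold (8.83 to 128) and 21.0-fold (5.72 to 174) lower. miR-206-3p held 16, 8 and 5 reads and was 3.98-fold, 5.39-fold and 4.59-fold lower. Of these, miR-1b and miR-206-3p reached 20 reads in the vehicle library alone and were measured only because they were high there. miR-1-3p, which also reached it in treated libraries, was called lower on each day, as were 9.09%, 32.6% and 30.3% of the 132 miRNAs on Day 1, 3 and 5. miR-133a-3p held 1, 0 and 1 reads. The summed red cell level was 38908 in the shared vehicle and 34634, 17022 and 19236 on these days, and its part in the falls was not tested.

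With DEX, miR-1-3p and miR-1b were called lower on Day 1 and miR-206-3p was not. miR-1-3p held 93, 228 and 123 reads on Day 1, 2 and 3, with levels of 621, 1060 and 1110, and was 2.23-fold lower on Day 1 (1.78 to 2.82) and not called later. With total counts and with the authors' normalized values Day 1 was not called either. miR-1b held 24, 61 and 28 reads and was 3.73-fold, 2.11-fold and 2.37-fold lower. miR-206-3p held 94, 85 and 45 reads, with ratios of 1.92 (1.43 to 2.57), 1.21 and 1.24 that were not called. With total counts and with the authors' normalized values its Day 1 ratio was 2.28 and 2.17 and was called higher. The members called lower were 2 of 3 on Day 1 and 1 of 3 on Day 2 and Day 3, against 32.1%, 21.4% and 28.2% of 131 miRNAs. The miR-1b calls rest on the shared vehicle, the highest of the 5 for miR-1b, and in the authors' normalized values only Day 1 kept its call. Day 2 also lost it with TMM within each model and Day 3 with total counts.

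Over all 66 combinations of member and treated library that were measured, 12 (18.2%) were called higher and 31 (47.0%) lower than the own vehicle. For all miRNAs these shares were 21.1% and 21.1%. With only miRNAs that reached 20 reads in 2 or more libraries of the model, 52 combinations remained, of which 10 (19.2%) were higher, against 22.5% for all miRNAs, and 25 (48.1%) lower, against 21.2%. The members' share of rises was thus near the background and their share of falls above it, in combinations that share vehicle libraries. By member, miR-1-3p was higher in 4 and lower in 12 of 24 libraries, miR-1b in 4 and 9 of 19, miR-206-3p in 3 and 10 of 19, and miR-133a-3p in 1 and 0 of 4. Outside the range of the 5 vehicle libraries lay 8 combinations above (12.1%, against 32.4% for all miRNAs) and 26 below (39.4%, against 26.3%). The counts over 66 combinations include members that reached 20 reads in 1 library of a model alone. These were miR-1b and miR-133a-3p in the 3 h library after APAP, and miR-1b and miR-206-3p in the vehicle library with CCl4. Among the 52, miR-1b after TAA reached 20 reads only at 3 and 6 h.

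Called in the same direction against each of the 5 vehicle libraries were 5 combinations higher (7.58%, against 12.4%) and 6 lower (9.09%, against 6.98%). The higher ones were miR-1-3p at 3 h after APAP, 3 h after TAA and 6 h after ANIT, and miR-133a-3p and miR-206-3p at 3 h after APAP. Of these, miR-133a-3p was measured only because it was high in that 3 h library. The lower ones were miR-1-3p at 24 h after APAP, TAA and MDA and at 48 h after ANIT, and miR-206-3p at 24 h after APAP and TAA. miR-1b had 0 such libraries in either direction. By this stricter count the members' share was close to the background in both directions.

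Ratios between members within a library need no scaling. Reads of miR-206-3p over miR-1-3p ranged from 0.0870 in the MDA vehicle (0.0227 to 0.238) to 1.01 in the DEX Day 1 library (0.751 to 1.36), with a median of 0.237. After TAA it went from 0.383 in the vehicle to 0.118 at 3 h, and after ANIT from 0.431 to 0.134. After APAP it was 0.590 in the vehicle and 0.460 at 3 h, with overlapping intervals. The ratio of miR-1b to miR-1-3p was 0.432 in the CCl4/DEX vehicle, against 0.123 to 0.216 in the other 4 vehicles, and 0.107 to 0.268 in the CCl4 and DEX libraries set against it. The miR-133a-3p ratio ran from 0 to 0.25, the highest on 3 reads against 12 at 12 h after TAA.

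**Figure D5:**
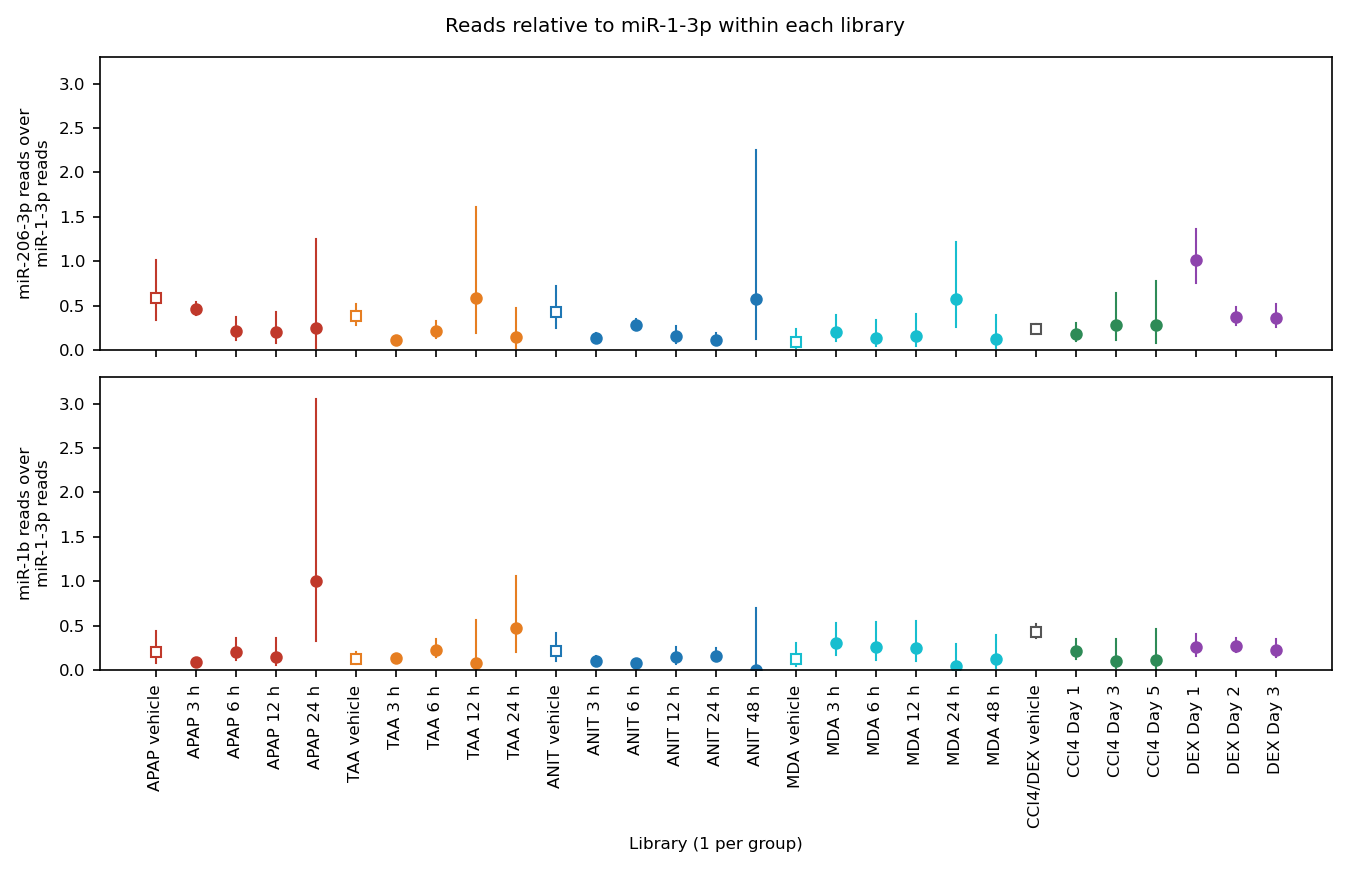
Reads of miR-206-3p (top) and miR-1b (bottom) divided by reads of miR-1-3p in each of the 29 libraries, with exact 95% intervals. Open squares are vehicle libraries. The DEX Day 1 library stands at 1.01 for miR-206-3p and the CCl4/DEX vehicle at 0.432 for miR-1b, while the miR-1b value of 1 at 24 h after APAP rests on 8 reads of each.

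The other miRNAs of the striated muscle list were scarce in plasma, except miR-378a-3p, which was higher late. The list had 10 rows in the tables, the 4 members among them. The relatives miR-133b-3p (19 reads over all libraries), miR-133a-5p (6 reads) and miR-208a-3p, the heart miRNA (2 reads), never reached 20 reads in a library, nor did miR-378a-5p (64 reads, at most 18). miR-499-5p, made from a slow myosin gene in heart and slow muscle, was at 0 or 1 read in each vehicle library and reached 32 reads at 24 h after TAA, where the vehicle had 0 (at most 7 in any other library). miR-1-3p was 19.3-fold lower in that same library. That library was the deepest, with 383330 reads against 33064 in its vehicle. Under TMM the miR-499-5p level there was 189, where 3 reads in the vehicle stand at 46.5. As a plain share of total reads, its 32 reads lie below the 3 reads that a 0 allows in the vehicle.

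miR-378a-3p, made from the Ppargc1b gene in muscle and other oxidative tissues including liver, held 2454 reads in the vehicle libraries together. It was called higher in 15 of 24 treated libraries and lower in 0, where 21.1% of all miRNA and library combinations were called in each direction. In the joint fit it was 2.82 higher late on the log2 scale (SE 0.53, adjusted p = 0.000479) and 1.90 higher late than early (SE 0.38, adjusted p = 0.00145), the opposite direction from the members. Of the 131 miRNAs, 29 were called higher in the first of these contrasts and 24 in the second. Of the list's 10 rows, 4 were tested in the fit, and in late minus early 3 fell and 1 rose.

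Across the 29 libraries, the level of miR-1-3p ranked most like that of miR-1b (Spearman rho 0.942), then miR-206-3p (0.843), let-7b-5p (0.714), miR-351-5p (0.673) and miR-181b-5p (0.652), where the median over 104 miRNAs was 0.0709. For miR-206-3p the next after miR-1-3p and miR-1b (0.787) were miR-181b-5p (0.732), miR-181a-5p (0.700) and miR-351-5p (0.681). For miR-1b they were let-7b-5p (0.664), miR-23a-3p (0.648) and miR-351-5p (0.618), and for the scarce miR-133a-3p the first were miR-1-3p (0.615), miR-1b (0.551), miR-206-3p (0.526), miR-100-5p (0.494) and miR-24-3p (0.490). With miR-122-5p the rho of miR-1-3p was -0.431, and with miR-451-5p 0.132. These values describe points that share libraries and scaling: the miR-1-3p level itself ranked with the TMM factor at 0.587 and with total reads at -0.570.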

How the data were processed

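Plasma small RNA libraries were made with a ligation kit and sequenced on a MiSeq, per the labels' protocols. The deposited tables list, for each mature miRNA, its read count in a library, beside a normalized signal that the authors made with DESeq 1.28.0, per the submitters' processing notes. Aligner, counter and miRNA release are not stated in these sources. Counts were used throughout, and the deposited normalized signal only as an alternative. No spike-in is named in the labels.

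CCl4 and DEX list the same vehicle library (225741 reads in both tables, 36 miRNAs apart by at most 4 reads), which entered once, as the CCl4 table gives it. Libraries were scaled by TMM (edgeR 4.0.16, R 4.3.3) over the 264 miRNAs listed in all 6 tables, with full table totals. Intervals are exact binomial (scipy 1.17.1), and a fold against 0 reads is a bound computed with 3 reads per library in place of 0. Log2 ratios of single libraries used a pseudocount of 0.5 read.

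The joint fit took 20 libraries, model as a block and time as a factor, and kept miRNAs that reached 10 reads in 4 or more libraries. SE is the absolute log2 change divided by the square root of F. The fit was first run on simulated data. Alternatives were TMM within each model, total counts, the authors' values, DESeq2 1.42.0 (size factors and Wald test), no filter, leaving out each model, miR-1-3p and miR-1b summed, and 4 chosen after seeing the data: the fit without the TAA vehicle library, the fit of the 16 treated libraries, a minimum of 20 reads in 2 or more libraries of a model, and other scalings of the 3 h to 24 h ratios.

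Genes named are the 4 members, the striated muscle list, the 5 miRNAs most like each member, miR-122-5p and the blood and smooth muscle markers. The members and lists were chosen with earlier results of these data known. Where nothing says that libraries come from separate rats, p-values measure only the spread between libraries of different models. The 2 labelled samples of the ANIT vehicle, 12, 24 and 48 h groups share 1 column and cannot be separated.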

Additional observations from a re-analysis of the deposited data

Results flagged for a closer look

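The miR-206-3p level of 914 in the TAA vehicle library stood apart from the other 4 vehicle libraries, its gap to the next being 0.754 of the whole range. So did the ANIT vehicle in its ratio of miR-133a-3p to miR-1-3p, at 0.118 on 6 reads, with a gap of 0.713 of the range. Of 7 such groups examined, chance flags about 1 in 20.

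In the steatosis models, the miR-206-3p ratios to the same vehicle library lay above 1 with DEX and below 1 with CCl4. Its ratio was 1.92, 1.21 and 1.24 on Day 1, 2 and 3 of DEX, and 0.251, 0.186 and 0.218 on Day 1, 3 and 5 of CCl4. The direction was the same under TMM within each model, total counts and the authors' normalized values. The difference was not tested, since each group is 1 library. Under TMM the DEX ratios alone were not called. Day 1 of DEX was called higher with total counts (2.28) and with the authors' normalized values (2.17).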

How the results depend on the processing

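Late minus early was called for all 3 members under every scaling and tool run, and with treated libraries only. Leaving out 1 model left 2 to 3 members called, miR-206-3p being lost without APAP. The late change was less firm: 0 to 2 members were called on leaving out 1 model, none without TAA, and 1 without the TAA vehicle library. miR-1b also lost the late call with DESeq2 size factors in edgeR (adjusted p = 0.0574) and with no filter (0.0987). The cause was not tested.

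With total counts the early change of miR-206-3p reversed to -0.17, the early difference between injury types of miR-1b to -0.0466, and 1 member was called in the late difference between types. On leaving out 1 model, that early difference ran from -1.66 to 2.84 for miR-1-3p, -0.27 to 1.79 for miR-1b and -2.08 to 1.03 for miR-206-3p, and the late difference of miR-1b from -2.62 to 0.96, so these signs are not settled. With no filter, miR-133a-3p gave 1.96 early (adjusted p = 0.346) and -2.001 late minus early (0.0580).

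Against each of the 5 vehicle libraries, libraries called lower came to 4 for miR-1-3p, 0 for miR-1b and 2 for miR-206-3p, and those called higher to 0 for miR-1b and 1 for miR-206-3p. This rule is stricter by construction. Of 183 single-library ratios under another scaling, 0 reversed a called direction and 26 lay outside the counting interval first given. TMM within each model also called miR-1-3p higher at 6 h after APAP and 12 h after ANIT. Total counts also called miR-1-3p lower at 12 h after APAP and 6 h after TAA, and miR-1b at 12 and 24 h after APAP. They also called miR-206-3p lower at 6 h after APAP, 3 h after TAA and 12 h after ANIT. Summing miR-1-3p and miR-1b gave 4 higher and 12 lower than the own vehicle, as for miR-1-3p. Against each of the 5 vehicle libraries the sum was called higher in 1 library, 3 h after TAA, and lower in 6. By that rule miR-1-3p alone was called higher in 3 and lower in 4. No paired analysis was possible because the numbered ANIT samples share 1 column per group. Depth limits miR-133a-3p, which reached 20 reads in 1 library, and miR-1b and miR-206-3p after MDA, which never reached them.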
